A study of Mus musculus with 6 samples.

Results

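CDK6 is a cyclin-dependent kinase that drives cells out of G1 and that also associates with chromatin. Its occupancy was examined at the promoters of 45 mouse genes that encode the machinery of DNA replication, from the origin recognition complex to the enzymes that finish the lagging strand. The 45 genes were taken by name out of 22028 protein-coding genes of the GENCODE M21 annotation. A gene was scored as occupied in a peak list when a peak of that list touched a promoter window that begins 2000 bp before any of its annotated transcript starts and ends 200 bp after it. The rule that names them uses their roles and no measured value, although the members were chosen with earlier results of these data known.

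The libraries were anti-HA chromatin immunoprecipitations from mouse pre/pro-B cell lines. All of them were transformed by BCR::ABL1 (p185), lacked endogenous Cdk6 (Cdk6-/-) and carried a retroviral vector that overexpressed an HA-tagged CDK6. The tagged protein was either wildtype (CDK6-WT, 2 libraries) or the kinase-inactive mutant (CDK6-K43M, 2 libraries). Chromatin was crosslinked with DSG and formaldehyde, so proteins held to DNA through partners are captured as well. The labels do not say whether replicates 1 and 2 came from separate cultures or separate lines, the transgenes were expressed from a viral promoter, and the 2 input libraries were not analysed here. The comparison of the variants asks whether the kinase activity of CDK6 alters where it sits on chromatin. With 2 libraries against 2 the smallest p that an exact permutation test can give is 0.333, so values are given library by library.

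Replication origins are prepared in G1. The origin recognition complex (Orc1 to Orc6) marks DNA, and Cdc6 and Cdt1 load the ring-shaped MCM helicase (Mcm2 to Mcm7) onto it, while geminin (Gmnn) blocks reloading after S phase begins. The Dbf4-dependent kinase Cdc7, Mcm10, Cdc45 and the GINS complex then start the helicase, RPA coats the unwound strand, and polymerases alpha, delta and epsilon copy it with the sliding clamp PCNA and its loader RFC. Many of these genes are classical targets of E2F factors, which bind a short G+C-rich sequence and are held in check by the retinoblastoma protein until it is phosphorylated by CDK4 or CDK6. CDK6 itself has no DNA-binding domain.

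Sequences under the summits are shown first because E2F-type letters were more frequent there than under the summits of occupied promoters at large, as counted further on. Within 100 bp of the strongest summit, 12 of the 42 replication genes with a promoter region bound by both variants (overlapping peaks in at least 3 of the 4 lists) held at least 1 of the words TTTCCCGC, TTTGGCGC, TTTCGCGC or TTTGCCGC on either strand. All 12 are printed as 28 bases around the match nearest to the summit, in lower case with the matched letters in capitals, read 5′ to 3′ on the strand of the gene from the mouse reference genome (GRCm38, mm10, RefSeq).
Orc3, chr4:34614966-34614993, minus strand: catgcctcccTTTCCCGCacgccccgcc
Mcm2, chr6:88898679-88898706, minus strand: ggtctagtTTTCGCGCGAAAaccggtgg
Mcm3, chr1:20820276-20820303, minus strand: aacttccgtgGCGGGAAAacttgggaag
Mcm5, chr8:75109348-75109375, plus strand: ccaagaacTTTCGCGCCAAAacgtccag
Mcm6, chr1:128359735-128359762, minus strand: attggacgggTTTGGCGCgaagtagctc
Mcm7, chr5:138171850-138171877, minus strand: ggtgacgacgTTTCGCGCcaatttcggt
Gins3, chr8:95633508-95633535, plus strand: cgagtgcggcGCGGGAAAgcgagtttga
Pcna, chr2:132252610-132252637, minus strand: ctctgtttccGCGCCAAAgccacaaagc
Rfc3, chr5:151651201-151651228, minus strand: cgtcgcacgcTTTCGCGCtcGCGGGAAA
Pola1, chrX:93632276-93632303, minus strand: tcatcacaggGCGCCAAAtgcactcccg
Pold3, chr7:100121468-100121495, minus strand: agcgaagctgTTTCCCGCcggcgggagc
Timeless, chr10:128232258-128232285, plus strand: gagcggctacTTTCCCGCcgcgcggttg

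The 12 places lay between 208 bp upstream (Mcm5) and 137 bp downstream (Timeless) of the nearest transcript start. Those of Mcm2, Mcm3, Mcm7, Gins3, Rfc3 and Pold3 fell within annotated untranslated exon sequence, those of Orc3, Mcm5, Mcm6 and Pola1 outside the gene, and those of Pcna and Timeless within an annotated intron. In Mcm2 and Mcm5 the capitals hold a pair of overlapping matches that share letters, and in Rfc3 a pair of separate ones. Longer stretches of the summit windows, with untranslated sequence left out, are given for Mcm6 and Pcna, which show the E2F letters in their setting. Those of Mcm10 and Pold2 are given beside them because neither gene had a region in more than 2 of the 4 lists. Neither window held an E2F match, and most windows of genes bound by both variants held none either.
Mcm6, chr1:128359665-128359853, minus strand: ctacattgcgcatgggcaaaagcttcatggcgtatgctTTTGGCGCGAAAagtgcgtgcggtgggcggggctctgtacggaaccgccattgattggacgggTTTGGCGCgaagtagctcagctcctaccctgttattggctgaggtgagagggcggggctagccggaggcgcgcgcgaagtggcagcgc
Pcna, chr2:132252619-132252815, minus strand: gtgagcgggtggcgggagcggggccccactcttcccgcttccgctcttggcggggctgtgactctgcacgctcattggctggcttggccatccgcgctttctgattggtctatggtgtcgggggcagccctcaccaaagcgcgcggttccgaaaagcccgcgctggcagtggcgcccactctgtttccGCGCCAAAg
Mcm10, chr2:5012575-5012704, minus strand: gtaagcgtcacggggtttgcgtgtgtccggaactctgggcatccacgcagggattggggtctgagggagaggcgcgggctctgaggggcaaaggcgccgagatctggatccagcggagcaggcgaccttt
Pold2, chr11:5878314-5878514, minus strand: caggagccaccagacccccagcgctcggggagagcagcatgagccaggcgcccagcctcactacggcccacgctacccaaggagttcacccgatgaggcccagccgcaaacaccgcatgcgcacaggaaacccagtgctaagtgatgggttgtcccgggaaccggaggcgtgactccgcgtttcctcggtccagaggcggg

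Nearly all replication genes had a CDK6 peak at the promoter. Counts per list were 45 of 45 in CDK6-WT replicate 1, 40 in CDK6-WT replicate 2, 45 in CDK6-K43M replicate 1 and 40 in CDK6-K43M replicate 2. Over all 22028 protein-coding genes the corresponding shares were 47%, 40.1%, 48.5% and 39.4%. Peaks of different lists that overlapped were joined into 1 region, and a region with a peak in at least 3 of the 4 lists was taken as bound by both variants. By that measure 42 of 45 replication genes (93.3%) had a promoter region bound by both, where 41.3% of all protein-coding genes did. Replication gene promoters were richer in CpG than most, with a median observed to expected ratio of 0.505 against 0.341. Among the 2655 protein-coding genes with a ratio of at least 0.6 the share bound by both was 74.4%. That set is not matched to the replication genes, of which 10 of 45 (22.2%) reached this ratio. A peak in all 4 lists was found for 38 of 45 (84.4%) beside 33.2% of all protein-coding genes. The counts fell with a stricter minimum on the peaks: with a −log10 q of at least 10, 20 of 45 genes (44.4%) were bound by both, beside 17.1% of all protein-coding genes.

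**Figure D1:**
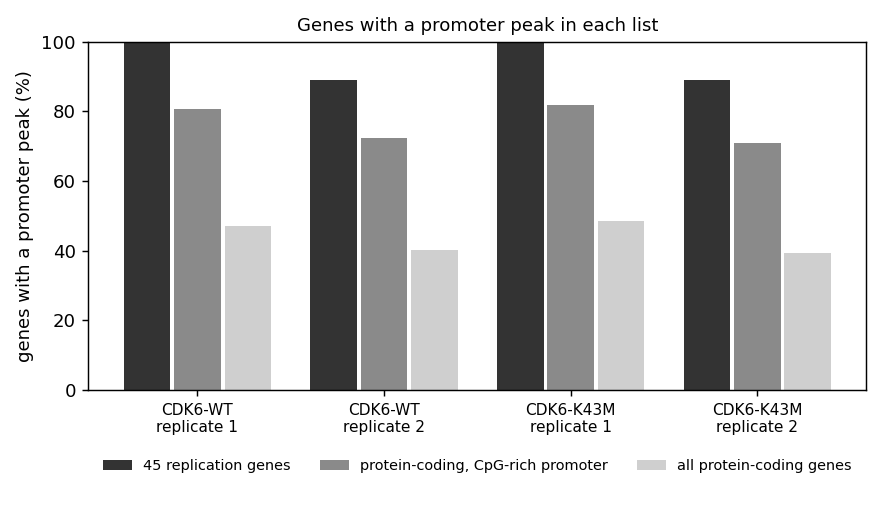
Share of genes (%, axis from 0) with a promoter peak in each of the 4 peak lists, for the 45 replication genes (dark), the 2655 protein-coding genes with a CpG-rich promoter (grey) and all 22028 protein-coding genes (light). In each list the replication genes had the highest share, 100% in the replicate 1 lists and 88.9% in the replicate 2 lists.

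Across the whole series the 4 lists held between 34729 and 39797 peaks, all with a −log10 q of at least 1.31. Such lists carry no read totals, and sequencing depth is therefore not given here. The replicate 1 lists had higher median −log10 q values (9.76 and 9.02) than the replicate 2 lists (6.82 and 6.68), in both variants alike. Promoters of 6 of 8 B-lineage marker genes, Cd79a and Pax5 among them, were bound by both variants, and Rag1 and Dntt had peaks in the replicate 2 lists only. None of 8 marker genes of T, myeloid or erythroid cells had a promoter peak in any list.

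To compare strength across lists, each peak was given the percentile of its −log10 q within its own list (0 weakest, 100 strongest), and a gene the percentile of its strongest promoter peak. The median over the 38 genes with a peak in all 4 lists was 87.8 in CDK6-WT replicate 1, 66.0 in CDK6-WT replicate 2, 90.2 in CDK6-K43M replicate 1 and 61.2 in CDK6-K43M replicate 2. Over the 7311 protein-coding genes with a peak in all 4 lists these medians were 84.3, 63.4, 86.1 and 62.8. Occupied replication promoters thus ranked close to occupied promoters at large, and both sets ranked higher in the replicate 1 lists.

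**Figure D2:**
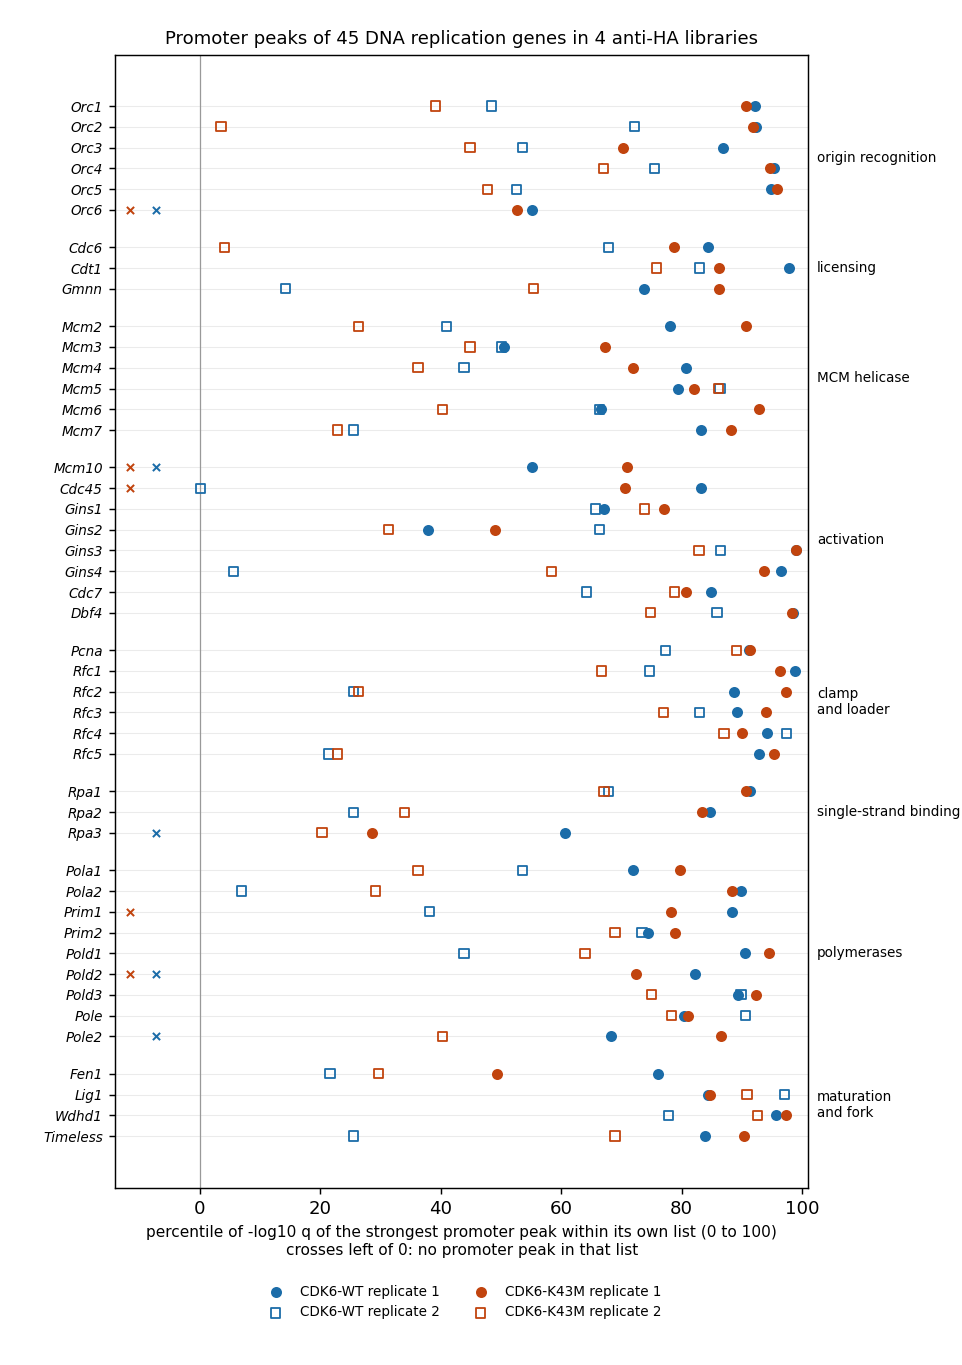
Percentile of −log10 q (0 to 100, within its own list) of the strongest promoter peak for each of the 45 replication genes, grouped by role, with CDK6-WT in blue and CDK6-K43M in orange, filled circles for replicate 1, open squares for replicate 2 and crosses where a list had no promoter peak. Filled circles lie mostly to the right of open squares, as in 31 of the 38 genes present in all lists, and blue and orange overlap in 36 of them.

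At the origin recognition complex, 5 of 6 subunit genes were bound by both variants. Orc4 was the strongest of them, at percentiles 95.3 and 75.4 in CDK6-WT and 94.6 and 67.0 in CDK6-K43M (replicates 1 and 2 in this order throughout). Orc1, the large ATPase subunit, reached 92.2 and 48.4 in CDK6-WT and 90.8 and 39.1 in CDK6-K43M. Its values separated by replicate and not by variant. Orc5 held 94.9 and 52.6 in CDK6-WT and 95.9 and 47.8 in CDK6-K43M, and it had a further, weak region bound by both with percentiles of 4.13 or less. Orc3 stood at 86.9 and 53.6 in CDK6-WT and at 70.2 and 44.9 in CDK6-K43M. The sixth subunit differed from these. Orc6 had peaks in the replicate 1 lists only, at 55.2 in CDK6-WT and 52.7 in CDK6-K43M.

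The loading factors were occupied in every list, and they included Cdc6, the gene with the widest gap between the variant means. Cdt1 stood at 97.8 and 83.0 in CDK6-WT and at 86.2 and 75.9 in CDK6-K43M. Cdc6 stood at 84.3 and 67.9 in CDK6-WT and at 78.7 and 4.16 in CDK6-K43M, so that its low value came from 1 library. Gmnn, the inhibitor of loading, went the other way with 73.8 and 14.2 in CDK6-WT and 86.2 and 55.4 in CDK6-K43M. For none of these genes did the variants separate, since the replicate 1 values of the lower variant lay above the replicate 2 values of the higher one.

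All 6 MCM helicase genes were bound by both variants and had a peak in each list. Their mean of the 4 list medians was the lowest of the role groups, at 62.3 beside 76.3 for all 38 genes, with no test between groups. Mcm3 was near the middle of both CDK6-WT lists, at 50.6 and 50.1, and stood at 67.3 and 44.9 in CDK6-K43M. Mcm7 stood at 83.2 and 25.5 in CDK6-WT and at 88.2 and 22.9 in CDK6-K43M, but from different regions. At chr5:138171711-138172598 the values were 83.2 and 25.5 in CDK6-WT and 88.2 and 1.26 in CDK6-K43M. At chr5:138170738-138171588 they were 73.5 and 10.2 in CDK6-WT and 80.6 and 22.9 in CDK6-K43M. In each region the replicate 2 values of Mcm7 were the lower ones in both variants. Mcm4 stood at 80.7 and 43.9 in CDK6-WT and at 71.9 and 36.2 in CDK6-K43M. In Mcm6 the variants differed in opposite directions in the replicate numbers, with 66.6 and 66.4 in CDK6-WT and 92.8 and 40.3 in CDK6-K43M, and Mcm2 stood at 78.1 and 41.0 in CDK6-WT and at 90.6 and 26.4 in CDK6-K43M. E2F letters were found in 5 of the 6 MCM windows, those of all but Mcm4. The Mcm4 window held a pair of NRF-1 matches. It was centred on a summit 458 bp upstream of the Mcm4 start and did not reach that start. The summits of Mcm4 lay 229 to 458 bp upstream of its start, on the side of Prkdc, a DNA repair kinase gene whose start is 489 bp away on the other strand. The Mcm4 window thus lay over the start of Prkdc, and its letters do not describe the start of Mcm4.

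Mcm5 shows how the strongest peak can belong to different places in different lists. At its most upstream start (region chr8:75109105-75109911) the percentiles were 79.4 and 50.1 in CDK6-WT and 82.0 and 52.0 in CDK6-K43M. Another region in an intron, chr8:75119786-75120112, 946 to 952 bp before an internal start, ranked 86.4 in CDK6-WT replicate 2 and 86.1 in CDK6-K43M replicate 2. That region ranked 55.2 in CDK6-K43M replicate 1 and was absent from CDK6-WT replicate 1. The intronic region was thus the stronger in the replicate 2 lists of both variants.

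Of the 8 genes that activate the helicase, 7 were bound by both variants. Gins3, a GINS subunit, carried 1 of the strongest promoters, at 99.1 and 86.5 in CDK6-WT and 98.9 and 82.9 in CDK6-K43M. Dbf4, the activating partner of Cdc7, followed at 98.6 and 85.9 in CDK6-WT and 98.4 and 74.9 in CDK6-K43M. The 4 GINS subunits, which form 1 complex, did not rank alike. Gins2 was among the weakest genes, at 37.9 and 66.4 in CDK6-WT and 49.0 and 31.3 in CDK6-K43M. Gins4 ranged from 5.63 in CDK6-WT replicate 2 to 96.5 in CDK6-WT replicate 1, with 93.7 and 58.4 in CDK6-K43M. The kinase Cdc7 itself stood at 84.9 and 64.2 in CDK6-WT and at 80.8 and 78.9 in CDK6-K43M. The remaining genes of the group were incomplete. Mcm10 had peaks in the replicate 1 lists only, at 55.2 and 70.9. Cdc45 met the rule of 3 lists through a peak in CDK6-WT replicate 2 at percentile 0.0893, with a −log10 q of 1.31, and had none in CDK6-K43M replicate 2.

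The sliding clamp and its loader had the highest mean of the 4 list medians of the role groups, at 83.6, and all 6 genes were bound by both variants. Rfc4, a small loader subunit, had the highest mean percentile of all replication genes, with 94.2 and 97.4 in CDK6-WT and 90.1 and 87.0 in CDK6-K43M. Its fold enrichment over the local background, as the peak caller gave it, was 10.9 and 14.7 in CDK6-WT and 9.62 and 9.06 in CDK6-K43M. Both CDK6-WT values lay above both CDK6-K43M values, by a mean of 7.21 percentile points (95.8 ± 2.24 against 88.6 ± 2.17, SD, n = 2 each, exact permutation test, 2-sided p = 0.333). Pcna, the clamp, stood at 91.2 and 77.3 in CDK6-WT and 91.3 and 89.1 in CDK6-K43M, and it had a pair of neighbouring regions present in all lists. At chr2:132252477-132252929 the values were 91.2 and 69.5 in CDK6-WT and 91.3 and 89.1 in CDK6-K43M. At chr2:132253040-132253571 they were 85.6 and 77.3 in CDK6-WT and 85.1 and 60.5 in CDK6-K43M. The replicate 2 differences thus had opposite directions in the regions. The other loader subunits ranked lower in the replicate 2 lists, to different degrees. Rfc1, the large subunit, stood at 98.8 and 74.7 in CDK6-WT and 96.4 and 66.7 in CDK6-K43M, and Rfc3 at 89.3 and 83.0 in CDK6-WT and 94.0 and 77.0 in CDK6-K43M. Rfc2 stood at 88.7 and 25.5 in CDK6-WT and 97.4 and 26.4 in CDK6-K43M. Rfc5 was like it, at 92.8 and 21.3 in CDK6-WT and 95.4 and 22.9 in CDK6-K43M, where the replicate numbers lay far apart and the variants close together.

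All 3 genes of the single-strand binding complex RPA were bound by both. Rpa1, the large DNA-binding subunit, had nearly the same values in both variants, 91.4 and 67.9 in CDK6-WT and 90.6 and 67.1 in CDK6-K43M. Rpa2 was weaker in the replicate 2 lists, with 84.8 and 25.5 in CDK6-WT and 83.3 and 34.0 in CDK6-K43M. Rpa3 lacked a peak in CDK6-WT replicate 2 and stood at 60.6 in CDK6-WT replicate 1 and at 28.5 and 20.3 in CDK6-K43M.

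Among the polymerase genes, 8 of 9 were bound by both variants. Pold3, a subunit of polymerase delta, ranked highest, at 89.3 and 89.8 in CDK6-WT and 92.4 and 75.0 in CDK6-K43M. Pola2, a subunit of polymerase alpha, ranked lowest of those present in all lists, at 89.9 and 6.94 in CDK6-WT and 88.3 and 29.1 in CDK6-K43M. Pold1 stood at 90.5 and 43.9 in CDK6-WT and 94.5 and 64.0 in CDK6-K43M, and it had 3 regions bound by both. Its region at the start, chr7:44547557-44549128, held 2 peaks in 3 of the lists, of which only the weaker touched the promoter window, and 1 wide peak in CDK6-K43M replicate 1. By the strongest peak of that region the percentiles were 96.8 and 74.2 in CDK6-WT and 94.5 and 89.7 in CDK6-K43M. The catalytic subunit of polymerase alpha, Pola1, stood at 71.9 and 53.6 in CDK6-WT and 79.7 and 36.2 in CDK6-K43M. Prim2, a primase subunit, had the narrowest range over the libraries among the polymerase genes present in all lists, from 68.9 to 78.8. Pold2 was seen only in the replicate 1 lists (82.3 and 72.4), although those peaks were well above the middle of their lists. Prim1, the catalytic subunit of primase, was missing from CDK6-K43M replicate 2, and Pole2 from CDK6-WT replicate 2.

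The catalytic subunit gene of polymerase epsilon, Pole, differed from the others in position. Its strongest peak (chr5:110284506-110285020) had its summit 1599 to 1615 bp upstream of the start in each of the 4 lists, at 80.4 and 90.7 in CDK6-WT and 81.0 and 78.3 in CDK6-K43M. A region over the start itself (chr5:110285228-110286814) was weaker, at 40.9 and 25.5 in CDK6-WT and 63.7 and 58.4 in CDK6-K43M. The start of Pxmp2, which encodes a peroxisomal membrane protein, lies 120 bp away on the other strand. The strongest peak lies beyond that start, on the side that Pxmp2 is transcribed into, and cannot be assigned to either gene. For Pole2 the most upstream start carried peaks in the replicate 1 lists only (68.2 and 86.6). Its region bound by both variants lay in an intron 13604 bp into the gene, where it ranked 12.2 in CDK6-WT replicate 1 and 56.5 and 40.3 in CDK6-K43M. Counted at that start alone, Pole2 would join Orc6, Mcm10 and Pold2 as genes seen in the replicate 1 lists only.

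The maturation and fork genes were all bound by both variants. Wdhd1, the adaptor that ties polymerase alpha to the helicase, was strong throughout, at 95.7 and 77.8 in CDK6-WT and 97.3 and 92.6 in CDK6-K43M. Timeless, a fork protection factor, stood at 83.9 and 25.5 in CDK6-WT and 90.3 and 68.9 in CDK6-K43M. Fen1, the flap nuclease, was the weakest gene present in all lists, at 76.1 and 21.6 in CDK6-WT and 49.4 and 29.7 in CDK6-K43M. Lig1, the ligase that seals Okazaki fragments, ranked high, at 84.3 and 97.1 in CDK6-WT and 84.7 and 90.9 in CDK6-K43M, but from different regions. At chr7:13278282-13278967, 1482 to 1483 bp into the gene and 60 to 61 bp before an annotated start, the values were 84.3 and 58.7 in CDK6-WT and 84.7 and 0.855 in CDK6-K43M. At chr7:13302701-13303314, 25628 to 25681 bp into the gene, they were 11.2 and 97.1 in CDK6-WT and 66.1 and 90.9 in CDK6-K43M.

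In 32 of the 38 genes with a peak in all lists the strongest peaks lay in the same region in all 4. The other 6 were Mcm5, Mcm7, Gins1, Pcna, Fen1 and Lig1, and for them a difference between libraries can be a difference between places. A shared region did not fix the place within it, since the 4 summits spread over 1024 bp in Pold1, 665 bp in Prim2 and 656 bp in Cdc7. In all, 73 regions overlapped the promoters of the 45 genes, of which 55 were bound by both variants and 9 were found in the replicate 1 lists only. No region was shared by a pair of replication genes. More than 1 region bound by both was found at 12 genes, namely Orc5, Mcm5, Mcm7, Gins1, Dbf4, Pcna, Pola2, Pold1, Pold3, Pole, Fen1 and Lig1. Counts of regions in this paragraph have no counterpart over all protein-coding genes, so whether they are unusual is not known.

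Wildtype and kinase-inactive CDK6 occupied nearly the same replication genes, all 45 in the replicate 1 lists and 38 in all 4. The mean number of genes with a promoter peak was 42.5 ± 3.54 (SD, n = 2) for each variant, with a difference of 0 within replicate 1 and within replicate 2. No replication gene had a promoter region unique to either variant, that is, one with peaks in both lists of a variant and in none of the other. Over all protein-coding genes 0.935% had such a region, so that a count of 0 in 45 is close to that background. In the strength of the peaks, the median percentile was 76.9 ± 15.4 for CDK6-WT and 75.7 ± 20.6 for CDK6-K43M (SD, n = 2 each). CDK6-K43M was higher by 2.40 percentile points within replicate 1 and lower within replicate 2, where the difference was −4.87. Over all protein-coding genes present in all lists the difference was 1.73 within replicate 1 and −0.663 within replicate 2.

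Single genes moved in both directions. Of 38 genes, 8 were higher in CDK6-K43M in both replicate numbers, 12 were lower in both, and 18 changed sign between the numbers. The same counts were not set beside those over all protein-coding genes, so they describe these genes only. Among the 8 genes higher in both, the largest differences were those of Gmnn (12.5 in replicate 1 and 41.2 in replicate 2), Timeless (6.47 and 43.4) and Pold1, the catalytic subunit of polymerase delta (4.03 and 20.1). The Pold1 values compare different places, and by the strongest peak of its region the replicate 1 difference was −2.29. Gins4, which changed sign (−2.87 and 52.7), had a mean difference of 24.9, beside 25.0 for Timeless. Among the 12 genes lower in both, the largest differences were those of Cdc6 (−5.65 and −63.7) and Orc2 (−0.514 and −68.7). Orc2 stood at 92.3 and 72.2 in CDK6-WT and at 91.8 and 3.53 in CDK6-K43M. For Cdc6 and Orc2 nearly all of the difference came from CDK6-K43M replicate 2, where the peaks of both genes were among the weakest of the list, with a −log10 q of 2.42 and 2.34. Orc3 (−16.7 and −8.69), Cdt1 (−11.6 and −7.08) and Mcm4 (−8.80 and −7.64) had smaller differences of like size in both numbers. In all of these genes, Gins4 included, the variants overlapped, and in all but Gins4 the exact permutation p was 0.667.

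**Figure D3:**
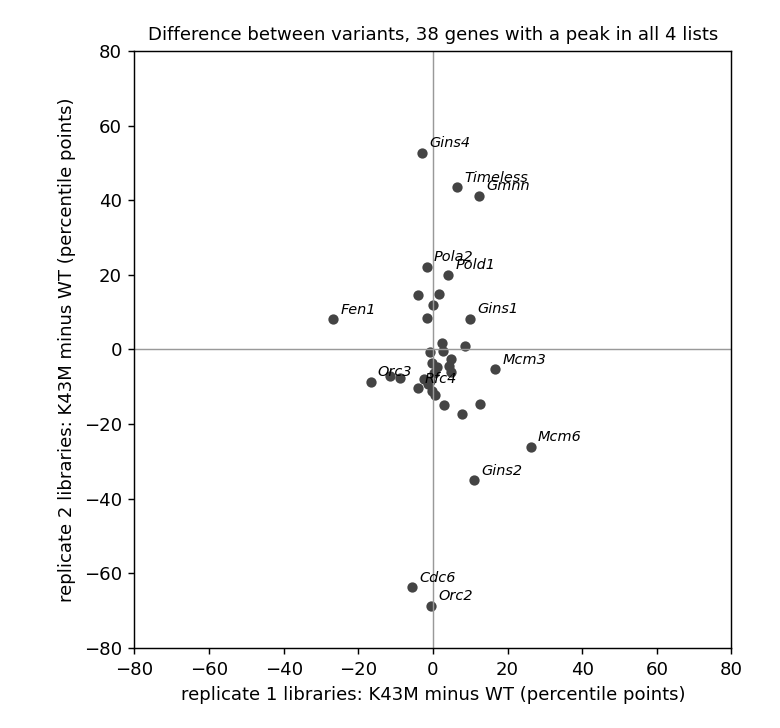
Difference in percentile points, CDK6-K43M minus CDK6-WT, within the replicate 1 libraries (x axis) and within the replicate 2 libraries (y axis) for the 38 genes with a peak in all lists, 1 point per gene. Points spread further along the y axis, from −68.7 (Orc2) to 52.7 (Gins4), than along the x axis, from −26.7 (Fen1) to 26.2 (Mcm6).

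Both CDK6-K43M values lay above both CDK6-WT values in 1 of the 38 genes (2.63%), beside 6.76% of all protein-coding genes with a peak in all lists. That gene was Gins1, with 67.1 and 65.7 in CDK6-WT and 77.1 and 73.9 in CDK6-K43M (exact permutation test, 2-sided p = 0.333). Its strongest peak in CDK6-K43M replicate 1 was in another region, 4308 bp into the gene, than in the other lists. Within the region that was strongest in those, chr2:150904295-150905162, CDK6-WT stood at 67.1 and 65.7 and CDK6-K43M at 74.6 and 73.9, so that the variants separated there too. In those lists the summits lay 546 to 612 bp upstream of the Gins1 start. A start of Abhd12 lies on the other strand, 659 bp from a Gins1 start, so a peak there cannot be assigned to either gene. Over starts of protein-coding transcripts alone the difference of Gins1 turned to −13.7. Both CDK6-WT values lay above both CDK6-K43M values in 1 gene as well (2.63%), Rfc4, beside 3.61%. Neither share was above the background.

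Replicate numbers separated the libraries where variants did not. Both replicate 1 values lay above both replicate 2 values in 31 of 38 genes (81.6%), beside 69.4% of all protein-coding genes present in all lists, and the reverse held in 2 genes (5.26%) beside 10.1%, Mcm5 and Lig1, whose strongest peaks changed place between the replicate numbers. The lower median −log10 q of the replicate 2 lists moved with this difference, and its part in it was not tested. The 5 genes missing from each replicate 2 list were in part the same. Orc6, Mcm10 and Pold2 were missing from both, Rpa3 and Pole2 from CDK6-WT replicate 2, and Cdc45 and Prim1 from CDK6-K43M replicate 2.

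The summits sat close to the transcript starts. Per gene, the median signed distance of the 4 summits from the nearest start had a median of −34.2 bp over the 38 genes, upstream being negative, and −44 bp over all protein-coding genes. For 26 of 38 genes (68.4%) it was within 100 bp of a start, beside 62.3% of all protein-coding genes. Over the single summits the median absolute distance was 58.5 bp (152 summits) beside 72 bp. The spread of the 4 summits of a gene had a median of 103.5 bp beside 130 bp. By the median of its 4 summits, Pole lay farthest from a start, followed by Gins1, Mcm5 and Mcm4. The summits of Gins1 lay 546 to 612 bp upstream in 3 of its 4 lists.

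**Figure D4:**
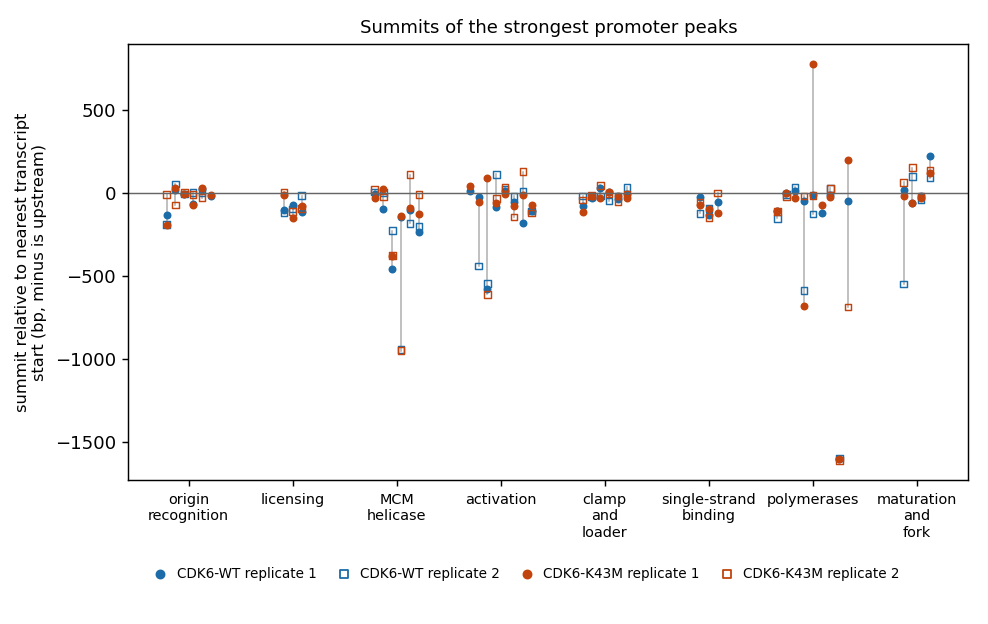
Position of the summit of the strongest promoter peak relative to the nearest annotated transcript start (bp, upstream negative) for each of the 45 genes by role, 1 symbol per list (CDK6-WT blue, CDK6-K43M orange, replicate 1 filled, replicate 2 open), joined by a line within a gene. Most symbols lie near 0, with Pole at 1599 to 1615 bp upstream in all 4 lists.

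A divergent protein-coding gene, with its start on the other strand within 1000 bp, was found for 15 of 45 replication genes (33.3%) beside 10.4% of all protein-coding genes. Pairs closer than 100 bp included Orc1 with Prpf38a (87 bp), Orc3 with Rars2 (13 bp), Orc6 with Vps35 (25 bp), Wdhd1 with Socs4 (74 bp) and Fen1 with Tmem258 (71 bp). Reads of an immunoprecipitation carry no strand of transcription, so a peak between such starts cannot be assigned to either gene.

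The E2F words were found in 12 of 42 summit windows of replication genes bound by both variants (28.6%, 95% Wilson interval 17.2% to 43.6%, which covers counting error only). Over 9101 bound protein-coding promoters the share was 3.69%, and over the 1975 bound promoters rich in CpG it was 4.51%. Around the most upstream starts, without regard to peaks, 16 of 45 replication genes (35.6%) held a match beside 2.07% of all protein-coding genes. The median distance of the nearest match from the summit was 30.5 bp, it was at most 50 bp in 7 of the 12 genes, and none of the matches overlapped an SP word. The mean percentile of genes with a match in their window had a median of 66.8 (12 genes), that of genes without a match 71.9 (26 genes). The strongest gene, Rfc4, had none. With 50 bp to either side of the summit the counts were 7 of 42 (16.7%) beside 1.89%, and with 250 bp 21 of 42 (50%) beside 7.13%. A match is a description of letters and does not show that a factor is bound.

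E2F words were spread unevenly over the roles. They were found at 5 of 6 MCM genes, 2 of 6 clamp and loader genes (Pcna and Rfc3), 2 of 8 bound polymerase genes (Pola1 and Pold3), 1 of 5 bound origin recognition genes (Orc3), 1 of 7 bound activation genes (Gins3) and 1 of 4 maturation and fork genes (Timeless). None of the 3 loading genes and none of the 3 RPA genes had one at this window size. CCAAT, the NFY word, was found in 19 of 42 windows (45.2%) beside 25.1% of all bound promoters, with 3 matches each at Mcm5 and Mcm7.

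GGGCGG, the SP word, was about as frequent at replication genes (54.8% of windows) as at all bound promoters (55.6%). CCGGAAGT, the ETS word, was found in 7 windows (16.7%) beside 9.89%, and GCGCATGC, the NRF-1 word, in 5 (11.9%) beside 6.09%, those of Orc3, Cdt1, Mcm4, Rpa2 and Wdhd1. That of Mcm4 lay over the start of Prkdc. CACGTG (E-box) was found in 3 windows (7.14%) beside 8.99%, those of Orc4, Mcm2 and Rpa1, and TGTGGTT or TGCGGTT (RUNX) in 3 (7.14%) beside 5.04%. The RUNX words were at Orc5, Pole and Lig1, of which Pole and Lig1 had their strongest summits far from their most upstream starts.

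**Figure D5:**
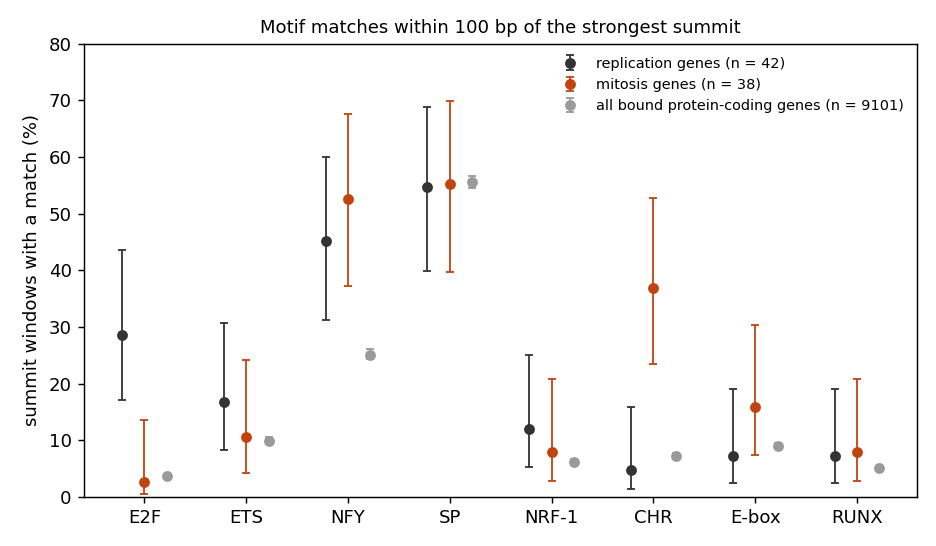
Share of summit windows (%, 100 bp to either side, either strand) that held each word, with 95% Wilson intervals, for the 42 bound replication genes (black), 38 bound mitosis genes (orange) and 9101 bound protein-coding promoters (grey). E2F stands at 28.6% in replication genes and 2.63% in mitosis genes, CHR at 4.76% and 36.8%.

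Mitosis genes, another set that proliferating cells switch on in each cycle, were counted beside them. Of 40 such genes 38 (95%) had a promoter region bound by both variants, with a mean of the 4 list medians of 71.0 beside 76.3 for replication genes. No test was run between the sets. E2F words were found at 1 of 38 bound mitosis genes (2.63%, Wilson interval 0.466% to 13.5%). The CHR words TTTGAA or TTCGAA, letters of an element through which the MuvB complex binds genes expressed late in the cycle, were found at 14 (36.8%, 23.4% to 52.7%). At replication genes CHR words were found at 2 of 42 (4.76%), Cdc45 and Gins3, and over all bound promoters at 7.13%. The NFY word was found in both sets, in 52.6% of mitosis and 45.2% of replication windows.

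A further list of 32 replication genes outside the 45, chosen for their roles, was measured alongside. A promoter region bound by both variants was found for 30 of 32 (93.8%), the exceptions being Ticrr and Chtf18 with peaks in the replicate 1 lists only. The mean of the 4 list medians was 76.8 over the 25 with a peak in all lists. Topbp1, which helps to fire origins, stood at 99.4 and 62.7 in CDK6-WT and 98.8 and 77.9 in CDK6-K43M, and Dna2, a nuclease of Okazaki fragments, at 88.7 and 98.4 in CDK6-WT and 98.8 and 97.9 in CDK6-K43M. E2F words were found at 10 of the 30 bound genes (33.3%, Wilson interval 19.2% to 51.2%). In this list 1 gene, Rnaseh2a, had a region unique to CDK6-WT and none had one unique to CDK6-K43M.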

How the data were processed

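Anti-HA ChIP-seq was carried out on 2 CDK6-WT and 2 CDK6-K43M libraries. Per the labels and the study's methods, the authors checked reads with FastQC 0.11.5, trimmed them with Trimmomatic 0.36, mapped them to mm10 with bwa-mem 0.7.15, removed blacklisted regions with bedtools, removed multimapping and low-quality reads with samtools 1.3.1, and called peaks per library with MACS2 2.1.0 at default settings. Whether the inputs served as controls is not given in the sources used here. The deposited narrowPeak values are an integer score, a fold enrichment ratio, −log10 p and −log10 q per peak. Removing multimapping reads can hide repeated promoter sequence, and a list cut at its q threshold cannot show weaker binding.

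Here peaks were matched to GENCODE M21 starts with Python 3.11.15 and numpy 2.4.6, each −log10 q was ranked within its list, and peaks sharing at least 1 bp were merged in place of DiffBind regions. The code was tested on simulated lists (400 promoters, 0 wrong). Differences of single genes were tested by the exact permutation over 6 assignments, and intervals are 95% Wilson intervals (scipy 1.17.1). CpG ratios cover the promoter window of the most upstream start. Words were counted on both strands of mm10 within 100 bp of the summit with the highest −log10 q. Per-library values were given for genes not bound by both, the 6 highest and 6 lowest, the 5 largest differences of like sign in each direction, and genes with more than 1 region; values of other genes were added after they were seen. Of the printed sequences, the rule named the windows of the 6 highest genes with an E2F match and of genes not bound by both, and the others were added after the counts were seen. Members and lists were chosen with earlier results of these data known. Alternatives covered peak minimum, list length, promoter window, transcripts, ranking measure, motif window, left-out libraries and the replicate number as a block. The result of 1 marker gene is not reported here.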

Additional observations from a re-analysis of the deposited data

How the results depend on the processing

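Of 160 alternative values for 12 results over the replication genes and 10 single genes, 2 reversed and 21 moved, counts by more than 1.5 times and other values by more than the spread between libraries. The other 137 kept their direction or stayed within those bounds, but not always their size. The causes were not tested where none is named. Fewer peaks gave lower counts by construction. Promoters bound by both fell from 42 to 20 (−log10 q of at least 10) and 14 (top 10000 peaks per list). These are 44.4% and 31.1% of replication genes, beside 17.1% and 12.7% of all protein-coding genes. Those in all 4 lists fell from 38 to 25 (−log10 q of at least 5), 11 (at least 10) and 11 (top 10000). For these no share over all protein-coding genes is given. The excess of replicate 1 over replicate 2 genes rose from 5 to 15, 27 and 22 under the same 3 settings. A gene with a variant-unique region appeared at a −log10 q of at least 5 (1 gene, Pole2, CDK6-K43M). Leaving out 1 library, which leaves a variant with a single list, gave 3 to 7. The share over all protein-coding genes was not counted under these settings, so whether such counts are unusual is not known. The count of genes with both CDK6-K43M values above CDK6-WT went from 1 to 2 (500 bp to either side of a start), 0 (protein-coding transcripts only) and 0 among genes whose strongest peaks shared a region, an alternative chosen after seeing the data that leaves Gins1 out. The count for CDK6-WT above CDK6-K43M went from 1 to 2 with lists of equal length. E2F matches numbered 7 (50 bp) and 21 (250 bp). With 7-letter words, without the first T, they numbered 22 of 42 (52.4%), beside 15.4% of all bound protein-coding promoters. At a −log10 q of at least 10 they numbered 5 of the 20 genes left, with no share over all promoters beside it. The difference in median percentile turned from −1.24 to 0.184 (500 bp to either side), and was −4.24 with summits within the promoter and −3.57 among genes whose strongest peaks shared a region. The difference in genes with a peak went from 0 to −3 at a −log10 q of at least 10. Ranked by fold enrichment, the difference of Mcm4 went from −8.22 to −14.2 and that of Gins1 from 9.09 to 15.3, while over protein-coding transcripts only that of Gins1 turned to −13.7. Cdc6 and Orc2 gave no value with lists of equal length, where their CDK6-K43M replicate 2 peaks dropped out, and Timeless none where summits had to lie within the promoter. With the replicate number as a block, the mean of the within-number differences was 0 genes and −1.24 percentile points, the same as without it, and the smallest p was 0.5. Deviations of same-numbered libraries from their variant means correlated at r = 0.572 across 7311 genes, which are not independent replicates. The labels do not say what the numbers share. Read totals were not analysed here, so depth and binding cannot be told apart.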
